A study of Mus musculus with 6 samples.

Results

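The interleukin-1 (IL-1) family was followed in synovial fibroblasts (SFs), the connective tissue cells of the joint lining, as 9 genes taken by name out of 49548 in the deposited table. These were the ligands Il1a, Il1b, Il33 and Il18, the receptor antagonist Il1rn, the receptor chains Il1r1, Il1rap and Il1rl1, and the decoy receptor Il1r2. The cells came from ankle joints of 8-week-old mice of CBA C57BL/6J background that carry a human TNF transgene (hTNFtg) and develop inflammatory polyarthritis, and both groups carried the transgene. Amisulpride, an antipsychotic drug acting on receptors for dopamine and serotonin, was given at 500 μM for 48 hours to the cells of 3 libraries, and the other 3 are labelled as untreated, although the methods of the study speak of vehicle. CD45+ cells were depleted at the first passage, and the replicates are described as biological without stating whether each came from its own mice, so the spread between them may be partly technical.

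IL-1 alpha and IL-1 beta signal through IL1R1, which recruits the accessory chain IL1RAP, and the adaptor MyD88 and kinases of the IRAK family then activate NF-kB and MAP kinases. IL1RN, the IL-1 receptor antagonist, occupies IL1R1 without recruiting the accessory chain, and IL1R2 is a decoy that binds IL-1 and does not signal. IL1RL1, also called ST2, is the receptor for the alarmin IL-33, shares the accessory chain with IL1R1, and is made in a membrane form that signals and in a soluble form that captures IL-33. Fibroblasts of the inflamed joint are known to respond to IL-1 with chemokines, matrix metalloproteinases and prostaglandins.

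The 9 genes had been selected on the treated-against-untreated contrast in these same libraries, so their differences are given as a description, and calls of members are counted only beside the share of all genes and support nothing. Values are normalised counts, that is, reads per gene scaled by the authors with a factor for each library, which did not make the library totals equal. For 5 libraries the estimated depth was 2.52 to 4.71 M reads, and for untreated replicate 1 it was uncertain. A count of 0 allows a level of up to 3 reads, which were worth 2.50 to 5.37 normalised counts depending on the library. Amisulpride replicate 3 stood apart from the others, with a score of 73.9 on the leading principal component (37.1% of the variance) against -38.2 to 10.4, and it was also the shallowest library, so values without it are given for the members it moves. Of 12 fibroblast markers 11 lay above the value of 3 reads in every library, and Fap, at 3 to 29 normalised counts, was the lowest. Col1a1, Col1a2 and Col3a1, the collagen genes with the highest levels, had 3440 to 35599 normalised counts, and none of the 12 passed the thresholds of the study. The log2 differences of the 12, treated minus untreated, went both ways, with a median of 0.19. Col1a1, Col1a2 and Col3a1 had 0.49, 0.71 and 0.71 and Fap 1.12, while Prg4 had -0.92, Lum -1.07 and Pdpn -0.67. Prg4 had 915, 859 and 733 normalised counts in untreated and 426, 304 and 653 in treated libraries, with no overlap.

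Il1rl1 and Il1rn carried the clearest differences of the family, and the RefSeq promoter windows of each gene lie in 2 separate regions. Promoter sequences of both genes are therefore shown, from RefSeq on build GRCm38.p6, as windows of 250 bases before and 50 bases after a start on the plus strand. Capitals mark matches on either strand to 4 motifs: the AP-1 site TGANTCA, the kappa-B site GGANTTTCC, the GATA site GATAAG and the TATA box TATAAA. The first Il1rl1 window lies at the upstream start and the second at the downstream start. The first Il1rn window lies at the start of Il1rn-204, which codes for an intracellular form, and the second at the starts of Il1rn-202 and Il1rn-201, the latter coding for the secreted form.
Il1rl1 upstream, chr1:40429320-40429619: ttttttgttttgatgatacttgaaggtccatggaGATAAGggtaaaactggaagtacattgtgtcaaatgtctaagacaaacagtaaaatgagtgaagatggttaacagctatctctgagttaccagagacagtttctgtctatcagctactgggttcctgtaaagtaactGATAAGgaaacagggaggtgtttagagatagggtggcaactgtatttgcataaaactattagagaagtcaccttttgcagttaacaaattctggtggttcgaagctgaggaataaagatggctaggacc
Il1rl1 downstream, chr1:40439379-40439678: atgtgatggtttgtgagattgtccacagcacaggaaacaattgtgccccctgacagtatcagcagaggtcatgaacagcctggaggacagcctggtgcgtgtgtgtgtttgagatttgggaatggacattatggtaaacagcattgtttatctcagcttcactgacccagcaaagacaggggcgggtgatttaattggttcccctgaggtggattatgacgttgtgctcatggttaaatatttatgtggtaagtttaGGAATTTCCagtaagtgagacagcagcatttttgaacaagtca
Il1rn upstream, chr2:24336610-24336909: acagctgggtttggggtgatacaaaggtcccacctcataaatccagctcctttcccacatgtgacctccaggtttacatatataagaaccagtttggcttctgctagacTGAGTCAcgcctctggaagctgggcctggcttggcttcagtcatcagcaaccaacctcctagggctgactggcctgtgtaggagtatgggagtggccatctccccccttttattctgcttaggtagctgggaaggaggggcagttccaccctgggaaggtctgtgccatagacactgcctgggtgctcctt
Il1rn downstream, chr2:24345041-24345340: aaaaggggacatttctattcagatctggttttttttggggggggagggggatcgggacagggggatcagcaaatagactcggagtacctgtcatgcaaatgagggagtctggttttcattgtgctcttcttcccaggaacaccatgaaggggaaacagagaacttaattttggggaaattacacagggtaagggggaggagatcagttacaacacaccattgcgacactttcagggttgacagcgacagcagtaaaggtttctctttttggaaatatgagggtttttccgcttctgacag

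The upstream Il1rl1 window held 2 GATA matches, the letters bound by GATA factors, whose leading bases lay 216 and 79 bases before the start. The downstream Il1rl1 window held a kappa-B match, GGAATTTCC, whose leading base was base 8 of the transcript. The upstream Il1rn window held an AP-1 match 141 bases before the start, and the downstream one shown held none of the 4 motifs. Another Il1rn window of the table, chr2:24345121-24345420, overlaps the latter and held a TATA box match on the opposite strand, TTTATA, at base 15 counted from its start. Over all 32851 promoters of this length in the RefSeq table, 1.25% held the kappa-B letters, 7.44% the GATA letters, 7.81% the AP-1 letters and 13.6% the TATA box letters. All 9 members matched the table, with 14 windows between them, and a TATA box match lay in 6 of these, including those of Il1a and Il1b at 32 and 31 bases before the start. A match of letters is a description and not a site of binding, and the motifs were picked with these sequences in view.

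Transcripts of the family were dominated by Il1rn and Il1rl1. Per kb of gene length, untreated SFs had 894 ± 203 normalised counts per kb for Il1rn (SD, n = 3), 170.5 ± 31.7 for Il1rl1, 13.1 ± 5.18 for Il1r1 and 12.0 ± 1.09 for Il18. On this scale Il1rap followed at 1.62 ± 0.54, Il1r2 at 1.61 ± 0.37 and Il33 at 0.97 ± 1.06. The ranges of neighbours in this order did not overlap between Il1rn and Il1rl1, between Il1rl1 and Il1r1, and between Il18 and Il1rap. Those of Il1r1 and Il18, and of Il1rap, Il1r2 and Il33, overlapped. Libraries of a 3′ end kit do not gain reads with transcript length, so a level per kb understates long genes. On the scale of normalised counts, without length, the untreated means of the lower genes were 83.7 for Il1r1, 26 for Il1rap, 19 for Il18, 15.3 for Il1r2 and 5.33 for Il33, so that Il1rap stood above Il18 and the gap between Il18 and Il1r2 was small. Il1rn, Il1rl1 and Il1r1 led in this order on both scales. Among the 12614 genes that passed the filter on low values Il1rn ranked 85th and Il1rl1 516th by untreated normalised count.

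**Figure D1:**
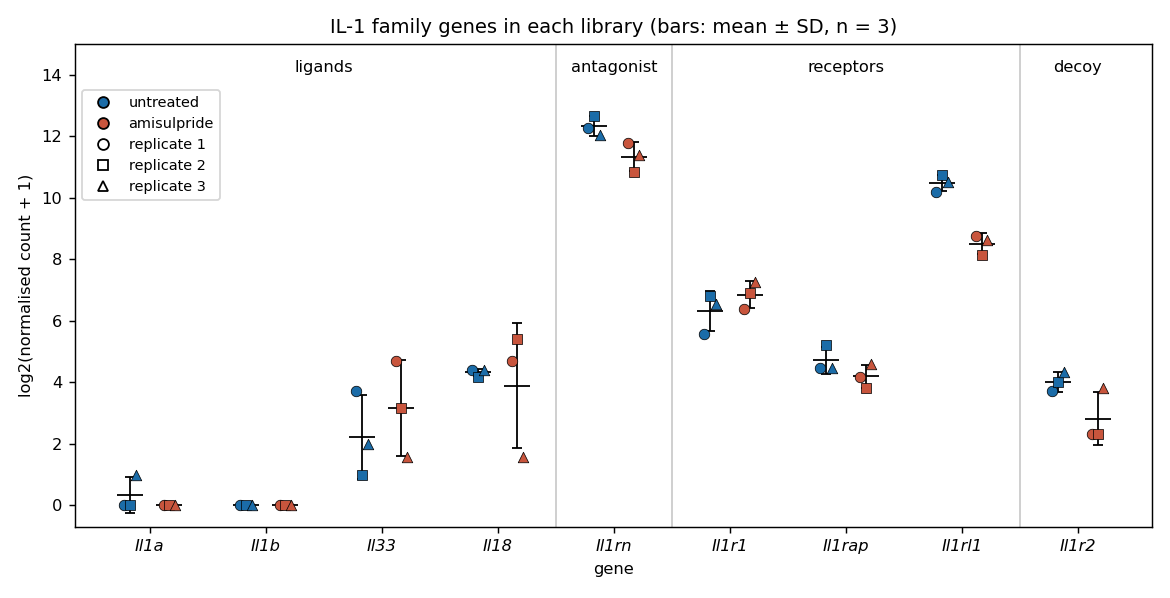
Levels of the 9 IL-1 family genes in each library, as log2(normalised count + 1) on the vertical axis, with ligands, antagonist, receptors and decoy from left to right. Each marker is 1 library, its shape gives the replicate number, and bars show the mean ± SD of 3 libraries. Il1rn and Il1rl1 lie highest and have treated values wholly below the untreated ones, and Il1a and Il1b lie at or near 0.

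Il1rl1, the ST2 receptor gene (ENSMUSG00000026069, mm10 chromosome 1, 40429570 to 40465415, plus strand), had 1167, 1702 and 1454 normalised counts in untreated replicates 1, 2 and 3. In amisulpride replicates 1, 2 and 3 it had 430, 278 and 397. The highest treated library lay well below the lowest untreated one. The mean was 1441 ± 268 in untreated and 368 ± 80.0 in treated SFs (SD, n = 3), a log2 difference of -1.97 ± 0.26 (SE) or a level 3.93 times lower. Leaving out each library in turn moved the difference between -2.12 and -1.78, and it was -2.04 without amisulpride replicate 3. Of the 12614 genes, 78 (0.618%) had a lower log2 difference. In bulk samples, fewer cells that express a gene and less RNA of it per cell cannot be told apart.

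The annotation (GENCODE M21, whose gene coordinates equal those of the table for all 9 members) gives 5 protein-coding transcripts of Il1rl1. Il1rl1-201 and Il1rl1-202 end at 40465396 and 40465415 and encode a product of 567 residues, the length of the membrane receptor. Il1rl1-203 and Il1rl1-205 end at 40448148 and 40446723 and encode 337 residues, the length of the soluble form, and Il1rl1-205 is the transcript that begins at the upstream start. Il1rl1-204, whose coding region is incomplete, begins at 40436589, between the promoter windows shown. The deposited value sums reads over the whole gene, so membrane and soluble ST2 transcripts cannot be told apart in the difference above.

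Il1rn, the receptor antagonist gene (ENSMUSG00000026981, mm10 chromosome 2, 24336853 to 24351494, plus strand), had 4877, 6529 and 4234 normalised counts in untreated replicates 1, 2 and 3. Treated libraries had 3515, 1828 and 2697. These values did not overlap either, but the gap between the closest libraries was small beside the spread within each group. The mean was 5213 ± 1184 in untreated and 2680.0 ± 844 in treated SFs (SD, n = 3), a log2 difference of -0.99 ± 0.31 (SE) or a level 1.98 times lower. The secreted antagonist (Il1rn-201, 178 residues) and the shorter products (Il1rn-204, the intracellular form of 159 residues, and Il1rn-202, of 162) are counted together in this value.

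Il1r1, the signalling IL-1 receptor (ENSMUSG00000026072, chromosome 1, 40225080 to 40317257, plus strand), had 47, 111 and 93 normalised counts in untreated and 83, 119 and 152 in treated libraries. The groups overlapped, and the log2 difference of 0.54 ± 0.36 (SE) lay between 0.17 and 0.78 with each library left out in turn, at 0.33 without amisulpride replicate 3. Its accessory chain Il1rap (ENSMUSG00000022514, chromosome 16, 26581704 to 26730117, plus strand) had 21, 36 and 21 in untreated and 17, 13 and 23 in treated libraries, with a log2 difference of -0.52 ± 0.42, which was -0.72 without amisulpride replicate 3 and -0.27 without untreated replicate 2. These groups overlapped as well. Il1rap transcripts for the membrane chain of 570 or 685 residues and for a soluble chain of 360 residues share the value.

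The decoy receptor Il1r2 (ENSMUSG00000026073, chromosome 1, 40074079 to 40125231, plus strand) had 12, 15 and 19 normalised counts in untreated and 4, 4 and 13 in treated libraries. Amisulpride replicate 3 lay within the untreated range, and amisulpride replicate 2, at 4 normalised counts, lay at the value of 3 reads in that library. The log2 difference was -1.19 ± 0.59 (SE) with all libraries and -1.69 without amisulpride replicate 3.

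Il1a and Il1b were near the limit of detection, and Il18 was low but above it in 5 of the 6 libraries. Il33 reached 12 and 25 normalised counts in replicate 1 and had 1 to 8 in the other libraries. Il1b (ENSMUSG00000027398, chromosome 2, 129364570 to 129371139, minus strand) was at 0 in all 6 libraries, which allows up to 2.50 to 5.37 normalised counts. Il1a (ENSMUSG00000027399, chromosome 2, 129299610 to 129309972, minus strand) had 1 normalised count in untreated replicate 3 and 0 in the others. Il33, the ligand of ST2 (ENSMUSG00000024810, chromosome 19, 29925114 to 29960718, plus strand), had 12, 1 and 3 in untreated and 25, 8 and 2 in treated libraries. Its 2 highest values were both in replicate 1, and it did not pass the filter on low values. Il18 (ENSMUSG00000039217, chromosome 9, 50554827 to 50581840, plus strand), a ligand released after cleavage by caspase-1, had 20, 17 and 20 in untreated and 25, 41 and 2 in treated libraries. The value of 2 in amisulpride replicate 3 lay below that of 3 reads in this library, 5.37 normalised counts. The log2 difference of Il18, -0.43 ± 0.81 (SE), turned to 0.73 without amisulpride replicate 3, so these data gave no stable direction for it.

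**Figure D2:**
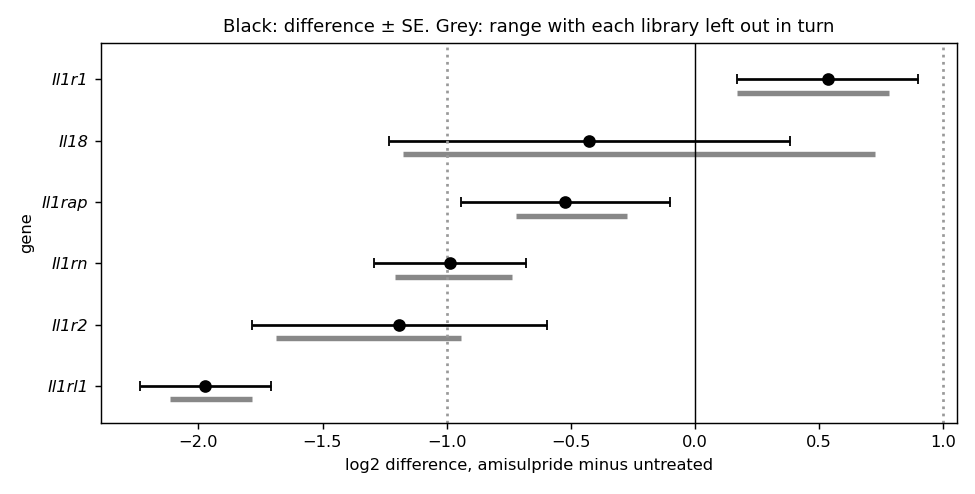
Log2 difference, amisulpride minus untreated, of the 6 IL-1 family genes that passed the filter on low values, with black bars for ± 1 SE and grey bars for the range with each of the 6 libraries left out in turn. Dotted lines mark the fold threshold of the study. Il1rl1 keeps a range of -2.12 to -1.78 and Il18 spans 0.

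Of the 9 members, 6 passed the filter, which asked for 10 or more normalised counts in 3 or more libraries, and Il1a, Il1b and Il33 did not. The cut-offs of the study, an absolute log2 difference of 1 or more together with an unadjusted p under 0.05, are named the study thresholds below. Il1rl1 alone of the 6 passed them, where 5.70% of all genes tested did, 2.69% as higher and 3.01% as lower in treated SFs. Treated and untreated values did not overlap for 2 of the 6, against 16.5% of all genes tested. Because the members were chosen with this contrast known, nothing is read from these counts. Il1rn, whose difference of -0.99 fell just short of the fold threshold, also passed when untreated replicate 1, untreated replicate 3 or amisulpride replicate 1 was left out, which gave 2 members. Leaving out amisulpride replicate 3 gave 3 members, Il1rl1, Il1rn and Il1r2. A filter of this kind keeps a gene through the group where it is high, which holds for Il1r2, whose treated values of 4, 4 and 13 alone would not have passed. It also holds for genes called below, for Cxcl2, Il11 and Camp through their untreated values and for Lcn2 through its treated ones.

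Neither the study nor the labels state that replicate numbers pair the libraries. The numbers were taken to do so from the correlations given below, and the members were also read within each number. Il1rl1 was lower in the treated library of all 3 pairs, by log2 differences of -1.44, -2.61 and -1.87 for replicates 1, 2 and 3. Il1rn was lower in all 3, at -0.47, -1.84 and -0.65, and Il1r2 in all 3, at -1.38, -1.68 and -0.51. Il1r1 was higher in all 3, at 0.81, 0.10 and 0.70. For Il1rl1, Il1rn, Il1rap and Il1r2 the pair of replicate 2 had the lowest difference, and untreated replicate 2 had the highest untreated value of Il1rl1, Il1rn, Il1r1 and Il1rap. Il1rap, Il33 and Il18 differed in sign between pairs.

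The balance of antagonist and receptor was taken as the ratio of their levels per kb in the same library. Il1rn stood at 113, 64.2 and 49.7 times Il1r1 in untreated replicates 1, 2 and 3 and at 46.3, 16.8 and 19.4 times in treated replicates 1, 2 and 3. All treated ratios lay below the lowest untreated one, although amisulpride replicate 1 was close to it. Il1rl1 stood at 105.9, 90.1 and 132 times its accessory chain Il1rap in untreated and at 48.2, 40.7 and 32.9 times in treated SFs. As normalised counts without length this ratio was smaller, at 55.6, 47.3 and 69.2 in untreated and 25.3, 21.4 and 17.3 in treated SFs, again with no overlap. Between the 2 abundant members, Il1rn over Il1rl1 was 5.28 ± 0.95 in untreated and 10.4 ± 1.26 in treated SFs (SD, n = 3), so that Il1rl1 was the one with the larger difference in each pair. Il1r1 over its decoy Il1r2 was 8.08 ± 2.69 in untreated and 31.0 ± 13.5 in treated SFs, with a denominator close to the limit of detection in treated libraries.

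Il1r2, Il1r1 and Il1rl1 lie in a cluster of 6 receptor genes that spans 477.6 kb of chromosome 1, all on the plus strand, together with Il1rl2, Il18r1 and Il18rap. Il1rl2, the receptor for IL-36, lies between Il1r1 and Il1rl1 and had 48, 61 and 59 normalised counts in untreated and 55, 47 and 72 in treated libraries. Its log2 difference was 0.04 ± 0.30 (SE), with a limma adjusted p of 0.977. Il18r1, the IL-18 receptor chain that begins 0.137 kb after the end of Il1rl1, had 0 to 3 normalised counts in each library. Il18rap, its accessory chain, had 25, 17 and 18 in untreated and 18, 7 and 9 in treated libraries, a log2 difference of -0.85 ± 0.49 with an adjusted p of 0.573. Il1rl1 was thus the highest gene of the cluster in each library, whereas Il1rl2 and Il18rap did not pass the test and Il18r1 was too low for it. No gene that overlaps a member in the annotation had a mean above 0.5 normalised counts.

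**Figure D3:**
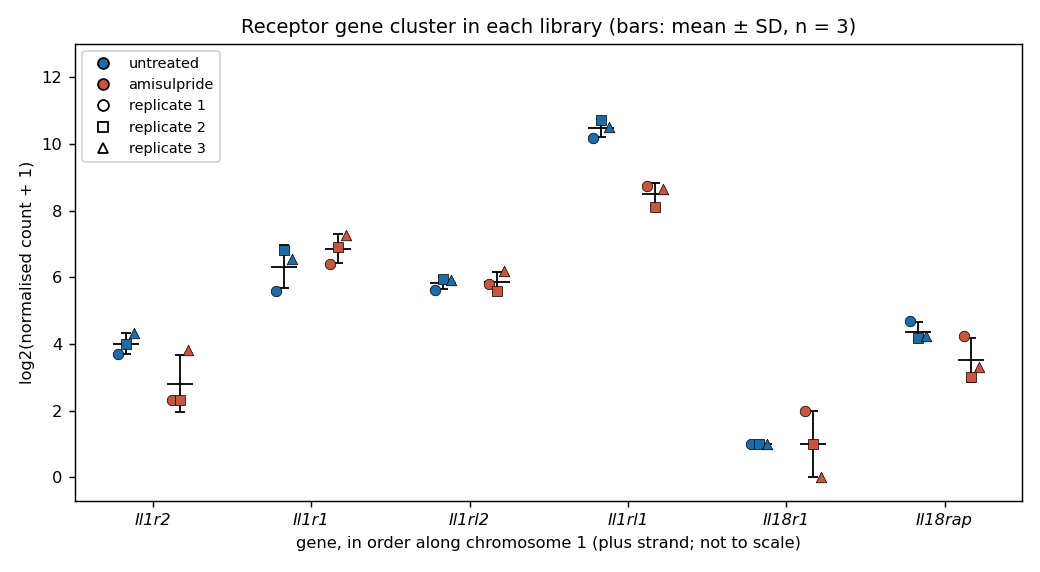
Levels of the 6 receptor genes of the chromosome 1 cluster in each library, in genomic order but not to scale, as log2(normalised count + 1). Markers give the replicate number and bars the mean ± SD of 3 libraries. Il1rl1 lies highest in both groups with no overlap between them, while the treated and untreated values of the other 5 genes overlap.

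The rest of the pathway was read from 5 lists that hold no member and could be tested with limma on log2(normalised count + 1). Of 81 listed genes 64 passed the filter. The study thresholds were passed by 11, 1 as higher and 10 as lower, against 5.70% of all genes tested. An adjusted p under 0.05 was reached by 3, against 0.285% of all genes tested. The median log2 difference over all genes tested was 0.00. Of the 5 other ligand genes of the family none was tested, since Il36g had 0 to 4 normalised counts and Il1f10, Il36rn, Il36a and Il36b were at 0. Of 7 further receptors and binding proteins 3 were tested and none passed, with a median of 0.04. The third of these, Il18bp, which binds and neutralises IL-18, had 7, 18 and 4 in untreated and 17, 19 and 13 in treated libraries, a log2 difference of 0.91 ± 0.58 (SE) with an adjusted p of 0.617. Il18bp passed the study thresholds without untreated replicate 2, at 1.44, and Il18rap without amisulpride replicate 1, at -1.21.

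Genes of proximal signalling gave 23 tested of 25 listed, a median log2 difference of 0.04 and none past the study thresholds or at an unadjusted p under 0.05. Those with the highest levels were Tab2 and Map3k7, parts of the TAK1 kinase complex, with Tollip, an inhibitor of IRAK1, and Mapkapk2, a kinase below p38. Map3k7 had a log2 difference of -0.33 ± 0.24 (SE), Tollip -0.26 ± 0.24 and Mapkapk2 -0.37 ± 0.24. Tab2 had 431 to 602 normalised counts in 5 libraries and 2750 in amisulpride replicate 3, and passed the study thresholds without amisulpride replicate 2, at 1.22. Myd88, the adaptor common to the receptors of the family, had 195, 255 and 236 in untreated and 213, 244 and 140 in treated libraries. Of 14 genes of ligand maturation and release 12 were tested, the median log2 difference was 0.02, and none passed either threshold. Casp1, the protease that cleaves IL-1 beta and IL-18, had 63, 63 and 35 in untreated and 32, 94 and 147 in treated libraries, which overlap, and passed as higher without amisulpride replicate 1, at 1.17. Casp4, the protease of the non-canonical inflammasome, passed as lower without amisulpride replicate 2, at -1.07. Capn2 and Capn1, calpains that cleave IL-1 alpha, had log2 differences of 0.07 ± 0.23 and 0.02 ± 0.36.

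Of 30 listed genes known to be induced by IL-1 in fibroblasts, 26 were tested. Of these, 21 had a negative log2 difference, as had 49.9% of all genes tested, and the median of the list was -0.77. The study thresholds were passed by 11 genes, 10 lower and 1 higher, where 5.70% of all genes tested passed. A limma adjusted p under 0.05 was reached by 3, namely Ccl20 and Cxcl3 as lower and Lcn2 as higher. The replicate block, the fit with the replicate number as a term, gave 9 genes with an adjusted p under 0.05, 8 lower and 1 higher, where 2.08% of all genes tested had one. The list holds genes that the study named on these samples, such as Ccl20, Cxcl3, Mmp3 and Ptgs2, so its count is not independent evidence. These genes are also induced by TNF, and which cytokine drove them was not tested.

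Among the chemokines, Cxcl3, an attractant of neutrophils, fell from 106 ± 19.6 to 18 ± 6 normalised counts (SD, n = 3; limma adjusted p of 0.0138). Ccl20, which attracts cells bearing CCR6, fell by 2.12 ± 0.28 (SE) on the log2 scale, with an adjusted p of 0.013. Cxcl2, another neutrophil attractant, had 24, 68 and 44 in untreated and 8, 19 and 7 in treated libraries, and reached an adjusted p of 0.167, or 0.0257 with the replicate block. Ccl2, which attracts monocytes, had 10066, 13080 and 9879 against 6767, 4947 and 3767, with no overlap. The limma adjusted p of Ccl2 was 0.173, and 0.0665 with the replicate block. Among the chemokines that did not pass, Ccl7 had a log2 difference of -0.05 ± 0.35, Cxcl1 of -0.54 ± 0.47 and Cxcl5 of -0.97 ± 0.39. Cxcl5 passed as lower with quantile normalisation, at -1.05, and on leaving out untreated replicate 1, untreated replicate 3, amisulpride replicate 1 or amisulpride replicate 2, at -1.25, -1.09, -1.03 and -1.24. Cxcl1 ranged from -0.81 to -0.04 over the alternatives. Il6, a cytokine of joint inflammation, had -1.12 ± 0.64 and passed with the replicate block and, at -1.72, without untreated replicate 3. Vcam1, an adhesion molecule on fibroblasts, had 0.18 ± 0.38.

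Among the matrix metalloproteinases, which degrade cartilage matrix, Mmp3 had a log2 difference of -1.79 ± 0.37 (SE; limma adjusted p of 0.0764, and 0.0091 with the replicate block). Mmp9 and Mmp13 passed the study thresholds as lower, at -1.70 ± 0.56 and -1.31 ± 0.42, although treated and untreated values overlapped for both. Their limma adjusted p was 0.265 and 0.254, and 0.0037 and 0.0105 with the replicate block. Within each replicate number the treated library was the lower one for both genes. Mmp9 no longer passed without untreated replicate 1 or amisulpride replicate 2, at -1.46 and -1.04, and Mmp13 without untreated replicate 2 or amisulpride replicate 1, at -1.03 and -0.91. Ptgs2, the inducible cyclooxygenase that makes prostaglandin precursors, had 719, 411 and 434 in untreated and 197, 78 and 191 in treated libraries, with an adjusted p of 0.0761, or 0.0021 with the replicate block. Il11, a cytokine of the IL-6 family made by stromal cells, had 27, 25 and 38 against 6, 3 and 16. The limma adjusted p of Il11 was 0.208, and 0.0532 with the replicate block. For Ptgs2 and Il11 all treated values lay below all untreated ones, but Il11 passed the filter only through its untreated values. Saa3, an acute-phase protein, passed at -1.13 ± 0.51, with a limma adjusted p of 0.452, or 0.0459 with the replicate block. Its difference was -0.48 without amisulpride replicate 3, and the call was then lost. The Saa3 call was also lost without untreated replicate 1 (-0.97) or untreated replicate 2 (-0.91). The call of Ccl2 was lost without untreated replicate 2 (-0.99) and without amisulpride replicate 3 (-0.92). Lcn2, a secreted carrier of iron-binding molecules, was the gene of the list that rose, from 35, 16 and 9 to 231, 361 and 159 normalised counts.

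**Figure D4:**
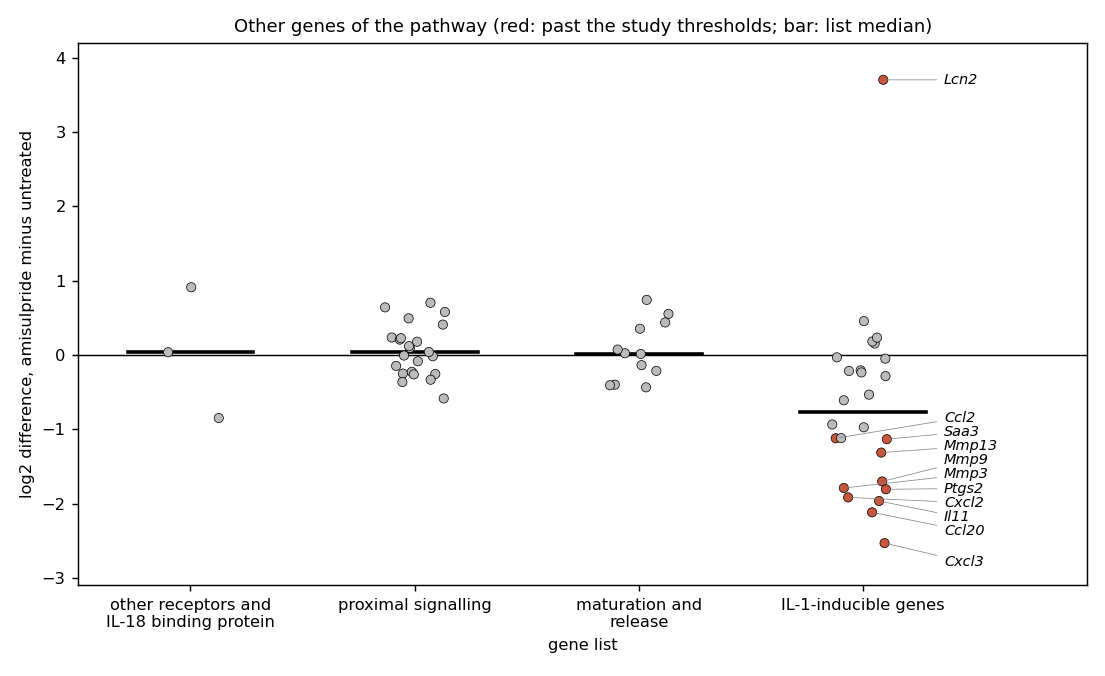
Log2 difference, amisulpride minus untreated, of the 64 tested genes of the pathway lists, 1 point per gene, with black bars for list medians. Red points passed the study thresholds and all 11 belong to the genes inducible by IL-1, whose median of -0.77 lies below that of the other 3 lists, at 0.02 to 0.04.

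Some members are also made by myeloid cells, and ST2 by mast cells and lymphocytes, so markers of these cells were read beside them. Macrophage and monocyte markers were present, with 12 of 14 above the value of 3 reads in every library. Their summed level was 2362 to 4214 normalised counts in untreated and 2398 to 4261 in treated libraries, most of it Lyz2, at 1394 to 3287, followed by Cd68 and Tyrobp. Of these 14 genes Cd14 and Csf1r passed the study thresholds as lower, at -1.74 ± 0.44 and -1.01 ± 0.46 (SE), with limma adjusted p of 0.144 and 0.456. The list as a whole had a median log2 difference of 0.05, with 7 of 13 tested genes higher and 6 lower. C1qc, C1qb and Adgre1 had 0.95 ± 0.41, 0.75 ± 0.36 and 0.83 ± 0.43 and did not pass. Ptprc, the gene of CD45, had 38, 12 and 18 normalised counts in untreated and 23, 5 and 5 in treated libraries. Its log2 difference was -1.16 ± 0.66, and it did not pass either. The part of these cells in the levels of Il1rn or Il1rl1 was not tested.

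Among 13 mast cell and basophil markers, Cpa3, Tpsb2, Ms4a2, Fcer1a, Gata1, Prss34 and Cd200r3 were at 0 in every library, Hdc had 0 to 9 and Cma1 0 to 3 normalised counts, and only Mcpt8 was tested. Mcpt8 fell by 2.37 ± 0.27 (SE) on the log2 scale with a limma adjusted p of 0.0081, and it makes up nearly all of the summed level of this list, 332 to 497 in untreated and 72 to 105 in treated libraries. It overlaps the microRNA gene Mir6949 on the same strand, so its value is uncertain. Of 10 neutrophil markers S100a9, Ly6g, Mpo and Ngp were at 0 in every library. Elane had 875 to 1610 and Cxcr2 37 to 86 normalised counts. The summed level of this list was 1156 to 1647 in untreated and 963 to 1679 in treated libraries, most of it Elane. Camp passed as lower, at -1.51 ± 0.55, but passed the filter only through its untreated values. Lymphoid markers summed to 26 to 41 in untreated and 15 to 33 in treated libraries, with 8 of 12 at 0 in every library, Cd3e among them. Cd3d, the highest of them, had 11 to 33 normalised counts, Gata3 0 to 6 and Il7r 0 to 4. Endothelial markers summed to 78 to 98 and 27 to 67, most of it Egfl7 at 25 to 84, followed by Tek at 1 to 12 and Vwf at 0 to 5, with Cdh5, Cldn5 and Tie1 at 0.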

How the data were processed

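The 3′ end libraries (QuantSeq kit, Ion Proton) were made from 3 untreated and 3 amisulpride-treated cultures of hTNFtg SFs. The authors mapped reads to mm10 with TopHat2 at default settings and iGenomes annotation, mapped the remainder with Bowtie2, counted reads per gene with GenomicRanges, and normalised and tested them with DESeq through metaseqr. Versions, and whether counting used strand, are not given in the sources used here. The deposited values used here are a score, read counts that the authors scaled per library and rounded to whole numbers (normalised counts). A deposited signal, the same value divided by gene length, gave levels per kb. The 6 other columns of values per library and the authors' own fold changes and p-values were not used.

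The main comparison used limma (version 3.58.1, R 4.3.3) with a variance trend on log2(normalised count + 1), over 12614 genes with at least 10 in at least 3 of 6 libraries. Tests were two-sided with Benjamini-Hochberg adjustment over all genes tested. Fold changes on this scale understate the change of low genes. The fit was tested on simulated data before use. The value of 1 read per library was estimated from the spacing of low values and is uncertain in untreated replicate 1, and floors of 3 reads cover counting error only.

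Members and gene lists were chosen with earlier results of these data known. The genes named are the 9 members, every list gene past the study thresholds, up to 4 others per list with the highest means, 3 markers per list with the highest means and any past the thresholds, and the 5 genes most like Il1rl1. A few others, such as Myd88, Casp4, Il6, Ptprc, C1qc and markers at 0, were named after their values were seen. A few genes that this rule would name are not reported here. A name carried by several genes was taken as the gene of highest mean.

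Untreated and treated libraries of the same replicate number deviated together from their group means (correlations over genes of 0.229, 0.240 and 0.201, against -0.149 to -0.078 for different numbers), so the numbers were taken to pair the libraries. The main comparison held no term for the replicate number, so its SE, p-values and calls ignore this pairing. The replicate block takes it into account. The alternatives were a pseudocount of 5, no filter, a filter of 20, quantile normalisation, median-of-ratios scaling, weights per library, a replicate block, and leaving out each library in turn.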

Additional observations from a re-analysis of the deposited data

How the results depend on the processing

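Genes with an adjusted p under 0.05 numbered 36, and 263 with the replicate block, 195 with weights per library, 66 with quantile normalisation and 57 each with a pseudocount of 5 and without the filter. With each library left out in turn the count ran from 0 to 120, the latter without amisulpride replicate 3. It was 0 in limma on leaving out untreated replicate 2 (unadjusted p under 0.05 for 1083 genes) or untreated replicate 3 (911 genes), 1 on leaving out untreated replicate 1, and 17 and 6 on leaving out amisulpride replicates 1 and 2. Genes past the study thresholds numbered 719, and 1313 without the filter, where 22775 genes were tested. IL-1 family members past them numbered 1, 3 with weights per library, 2 with quantile normalisation, and 1 to 3 with each library left out in turn. The pathway count of 11 ran from 9 to 13 over the alternatives, and 7 of the 11 genes passed in every one. Of 77 differences of members under an alternative 2 changed sign, both of Il18. They turned to 0.29 with weights per library and 0.73 without amisulpride replicate 3. All 77 moved by less than 1 SD between replicates, but most were bound to. Leaving out 1 library cannot move a difference that far, and the changed filters and the replicate block leave it unchanged. Nothing is read from that count. Except as given above and for the list of genes inducible by IL-1, the replicate block changed no call of a member or of another list. The causes were not tested. Depth limits Il1a, Il1b, Il33 and Il1r2, some or all of whose values lie near those of a few reads, and Il18 in amisulpride replicate 3.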

Other observations

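The genes whose pattern over the 6 libraries was most like that of Il1rl1, by Pearson correlation of log2(normalised count + 1) over all genes tested, were Mvk (r = 0.998), Angptl2 (0.986), Dock6 (0.983), Hexim1 (0.983) and Wdfy4 (0.983). The 6 libraries fall into 2 groups that differ in Il1rl1, so any gene with a difference of the same direction correlates with it, and the coefficients are a description without a test. Mvk, which encodes mevalonate kinase of the sterol pathway, had 187, 227 and 205 normalised counts in untreated and 121, 103 and 122 in treated libraries. Angptl2, a secreted protein of the angiopoietin-like family, had 1102, 1181 and 1168 against 535, 309 and 428. Hexim1, an inhibitor of transcription elongation, had 444, 514 and 547 against 234, 194 and 274. Dock6, a guanine nucleotide exchange factor, had 28 to 34 against 17 to 19, and Wdfy4 had 11 in each untreated library against 4 to 6. In each of the 5 the treated and untreated values did not overlap, where 16.5% of all genes tested had no overlap. They were picked for likeness to Il1rl1, whose groups do not overlap, so nothing is read from this. Wdfy4 passed the filter on low values only through its untreated libraries.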
